A study of Homo sapiens with 12 samples.

Results

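The collagen chains are the genes whose symbol is COL, a number, A and a number, and 44 of the 19973 genes in the expression table carried such a name. They were studied by RNA sequencing in 2 human non-small cell lung cancer (NSCLC) lines, H460, derived from a large cell carcinoma, and A549, derived from an adenocarcinoma. Each line was left non-treated (control) or received 10 μM isovalerylspiramycin I (ISP-I), a purified component of the macrolide antibiotic carrimycin, for 48 h, with 3 libraries in each of the 4 groups. Both lines are labelled wild type and no gene was edited, though the study states that both carry homozygous inactivating mutations of KEAP1. The controls are labelled non-treated rather than vehicle-treated. Expression is given as FPKM, fragments per kilobase of gene scaled to the size of the library, which allows levels of different chains to be set side by side. The libraries held 14225849 to 17874422 counted reads. Nothing in the labels says whether the 3 libraries of a group came from separate cultures, so the p-values measure the spread between these libraries, which may be technical.

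Collagens are secreted matrix proteins in which 3 chains wind around each other into a rod-like helix. Fibrillar collagens assemble into the fibres that carry tension in connective tissue, with the type V and type XI chains setting the start and width of a fibre. The type IV chains build the sheet-like network of basement membranes, on which lung epithelium rests and which invading carcinoma cells cross. The remaining types bind to the surface of fibres, anchor the epithelium to the tissue below, form beaded filaments or span the cell membrane. Many chains, though not all, assemble with partner chains of another gene. Hydroxylation, glycosylation and folding take place in the endoplasmic reticulum before secretion. Partner chains and the enzymes of that pathway are therefore given with them.

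Of the 44 chains, 29 averaged 0.1 FPKM or more across the 6 libraries of a line, 27 in H460 and 24 in A549, with 22 in both. All 6 type IV chains passed in both lines, against 8 of 11 fibrillar chains in H460 and 6 of 11 in A549, and 13 and 12 of the 27 other chains. The chains nearest to the limit were COL20A1 at 0.102 FPKM and COL13A1 at 0.178 FPKM just above it in A549, and COL11A1 at 0.0903 FPKM and COL28A1 at 0.0906 FPKM just below it. In H460, COL9A3 at 0.115 FPKM lay just above it and COL10A1 at 0.0499 FPKM just below. The 15 chains under the limit in both lines were COL1A2, COL2A1, COL11A1, COL9A1, COL14A1, COL19A1, COL22A1, COL23A1, COL25A1, COL8A2, COL10A1, COL6A3, COL6A5, COL6A6 and COL28A1, and none of them exceeded 0.192 FPKM or 21 reads in any library. Several of these are partners of chains that were measured. COL1A2, the usual partner of COL1A1 in type I collagen, had 0 reads in all 6 control libraries, which allows up to 0.0195 FPKM in a library (3 reads, counting error only). After ISP-I it had 5 reads over the H460 libraries and 10 over the A549 libraries. COL6A3, the partner that type VI collagen normally needs, had between 1 and 8 reads in each of the 12 libraries.

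The labelled cell type was checked against its markers. The 6 epithelial markers summed to 357.8 to 432.3 FPKM in control H460 and 328.6 to 419.6 FPKM after ISP-I, and to 1436 to 1826 and 1252 to 1266 FPKM in A549. Keratins of simple epithelium were high in both lines, with KRT8 at a mean of 194 FPKM in control H460 and 650 FPKM in control A549. H460 lacked the epithelial adhesion genes, with CDH1 at 0 and EPCAM at 0.0473 FPKM in control libraries, whereas control A549 had CDH1 at 4.90 FPKM. After ISP-I, CDH1 in A549 fell to 0.756 FPKM (-1.75 ± 0.09, adjusted p = 2.74e-06) and KRT8 to 324 FPKM (-0.99 ± 0.11, adjusted p = 0.000125). In H460, KRT19 fell (-1.08 ± 0.15, adjusted p = 0.00025), KRT18 rose (0.90 ± 0.16, adjusted p = 0.00128) and KRT8 was at 190 FPKM (adjusted p = 0.839). The 7 fibroblast markers, which mark the main collagen-making cells of tissue, summed to 0.749 to 0.940 FPKM in control H460 and to 2.52 to 2.75 FPKM after ISP-I, and to 0.667 to 0.677 and 0.974 to 1.14 FPKM in A549. PDGFRB made up most of the sum in treated H460, at 2.40 FPKM, while PDGFRA was at 0 in control H460 and FAP at 0 in both groups of A549. DCN, LUM and POSTN had group means of at most 0.230 FPKM. The part of these markers in the collagen changes was not tested. Summed endothelial markers did not exceed 0.3675 FPKM in any library, and summed leukocyte markers did not exceed 0.0679 FPKM.

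Summed collagen RNA was lower after ISP-I in both lines, though some chains rose. The FPKM of the 44 chains summed to 555.6, 557.3 and 562.6 in the H460 controls and to 105.4, 110.5 and 95.0 after ISP-I, means of 558.5 ± 3.66 and 103.7 ± 7.88 (SD, n = 3). In A549 the sum was 250.4, 252.7 and 234.4 in controls and 164.9, 158.2 and 165.4 after ISP-I, means of 245.9 ± 9.96 and 162.9 ± 4.04. The groups did not overlap in either line. A single chain, COL5A2, gave 66.4% ± 0.759 of the summed level in control H460 and 16.7% ± 0.811 after ISP-I. Without it, the H460 sum was 187.5 ± 4.93 in controls and 86.4 ± 6.44 after ISP-I, and the A549 sum 210 ± 6.19 and 156.1 ± 3.85. In share of all counted reads, the chains made up 0.449% in control and 0.0975% in treated H460, and 0.261% and 0.175% in A549. In bulk RNA such a share cannot tell less RNA per cell from fewer cells that make it.

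**Figure D1:**
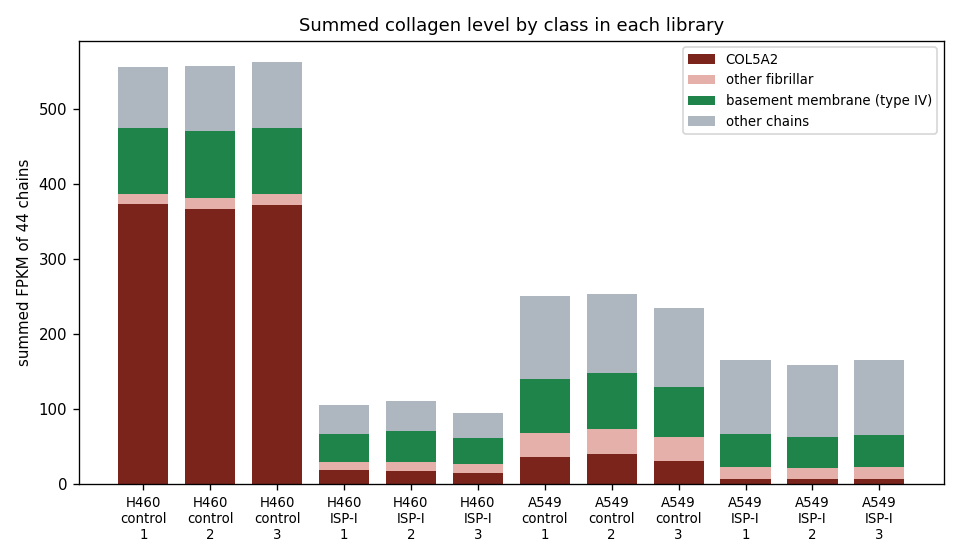
Summed FPKM of the 44 collagen chains (vertical axis) in each of the 12 libraries (horizontal axis), stacked as COL5A2, the other fibrillar chains, the type IV chains and all others. The COL5A2 block makes up 66.4% of the mean H460 control bar and 16.7% of the mean H460 ISP-I bar, and in A549 the fibrillar share went from 27.6% to 14.1% while the other chains went from 43.5% to 60.1%.

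The chains at the top of the order differed between the lines. Control H460 was led by COL5A2 (371 ± 3.73 FPKM), then COL4A6 (58.9 ± 1.21), COL8A1 (43.2 ± 1.21) and COL6A1 (27.4 ± 3.48), and none of these 4 neighbours overlapped in their libraries. Control A549 was led by COL7A1 (51.0 ± 3.43), then COL5A2 (35.8 ± 4.31) and COL18A1 (33.6 ± 0.277), whose libraries overlapped, then COL5A1 (26.5 ± 0.857). COL4A6 (23.5 ± 1.21) and COL4A2 (23.3 ± 0.961) followed and also overlapped. After ISP-I the order in H460 was COL4A6 (25.1 ± 1.72), COL8A1 (18.1 ± 1.93) and COL5A2 (17.3 ± 1.71), the last 2 overlapping. In A549, COL7A1 (60.8 ± 1.33) stood well above COL4A2 (14.0 ± 0.550), COL18A1 (13.8 ± 0.476) and COL4A6 (13.6 ± 0.644), which overlapped one another.

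**Figure D2:**
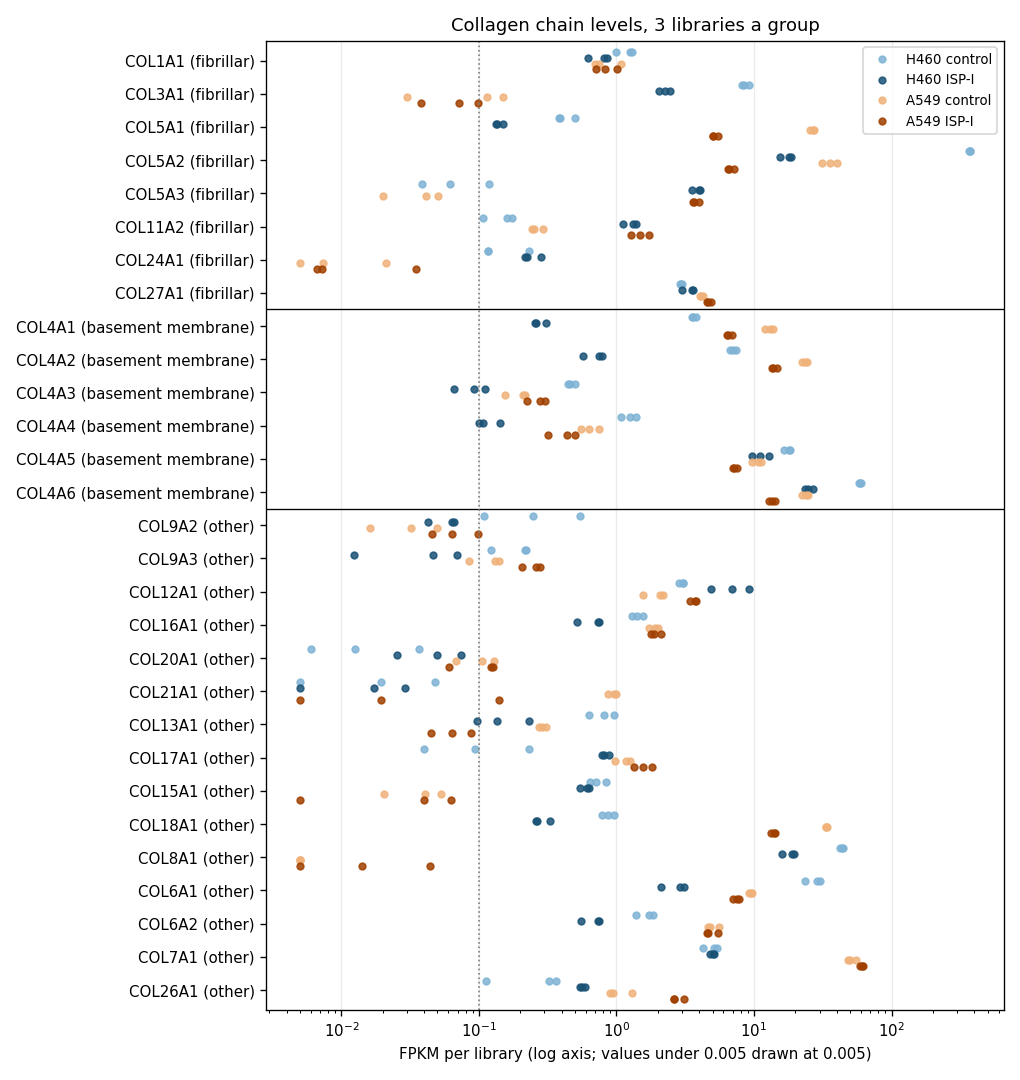
FPKM of the 29 chains that averaged 0.1 FPKM or more in a line (horizontal log axis), with 1 point for each of the 12 libraries and colours for the 4 groups. The dotted line marks 0.1 FPKM, and values under 0.005 are drawn at 0.005. COL5A2 spans 6.48 to 374 FPKM over the libraries, while COL27A1 stays between 2.90 and 4.91 FPKM.

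Treatment was compared with control within each line by limma on log2(FPKM + 1), adjusted over all genes tested. A chain is said to have risen or fallen at an adjusted p under 0.05, and is called a differentially expressed gene (DEG) where the fold change on that scale also exceeded 2. The study likewise used a 2-fold limit, but its scale and p-value may differ from these, and by the ratio of mean FPKM 5 chains up and 16 down passed both limits in H460 and 4 up and 5 down in A549. The share of all genes by that ratio was not computed. Since 1 FPKM is added, this scale understates the change wherever either group is low, also for chains of several FPKM in the other group. COL4A1 in H460, for example, went from 3.63 to 0.275 FPKM, 13.2-fold lower, with a change of -1.86 on this scale. Ratios of mean FPKM are therefore given beside it. In H460, 5 of 27 chains rose, 18 fell and 4 did neither. That is 85.2% of the chains, where 69.2% of all genes passed, 27.6% upward and 41.5% downward. DEGs were 1 chain upward and 8 downward, 33.3% of the chains against 25.7% of all genes (10.5% up and 15.2% down). The study itself reported more genes up than down in H460, the reverse of these shares. In 25 of the 27 chains the control and ISP-I libraries did not overlap, as in 72.7% of all genes. The median change of the chains was -0.43 on the log2 scale, beside -0.15 for all genes tested. The H460 libraries were also scaled by median-of-ratios size factors, which moved the median of all genes from -0.15 to 0.01. Then 6 chains rose and 16 fell, and 3 and 5 were DEGs, where 67.1% of all genes passed and 25.0% were DEGs.

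In A549, 7 of 24 chains rose, 11 fell and 6 did neither. That is 75.0% of the chains, where 57.5% of all genes passed, 30.5% upward and 27% downward. DEGs were 1 chain upward and 3 downward, 16.7% of the chains against 7.71% of all genes (4.2% up and 3.51% down). In 20 of the 24 chains the groups did not overlap, as in 65.5% of all genes. The median change was -0.01 beside 0.02 for all genes. Without ISP-I library 3, 4 chains rose in place of 7, and 47.8% of all genes passed in place of 57.5%.

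**Figure D3:**
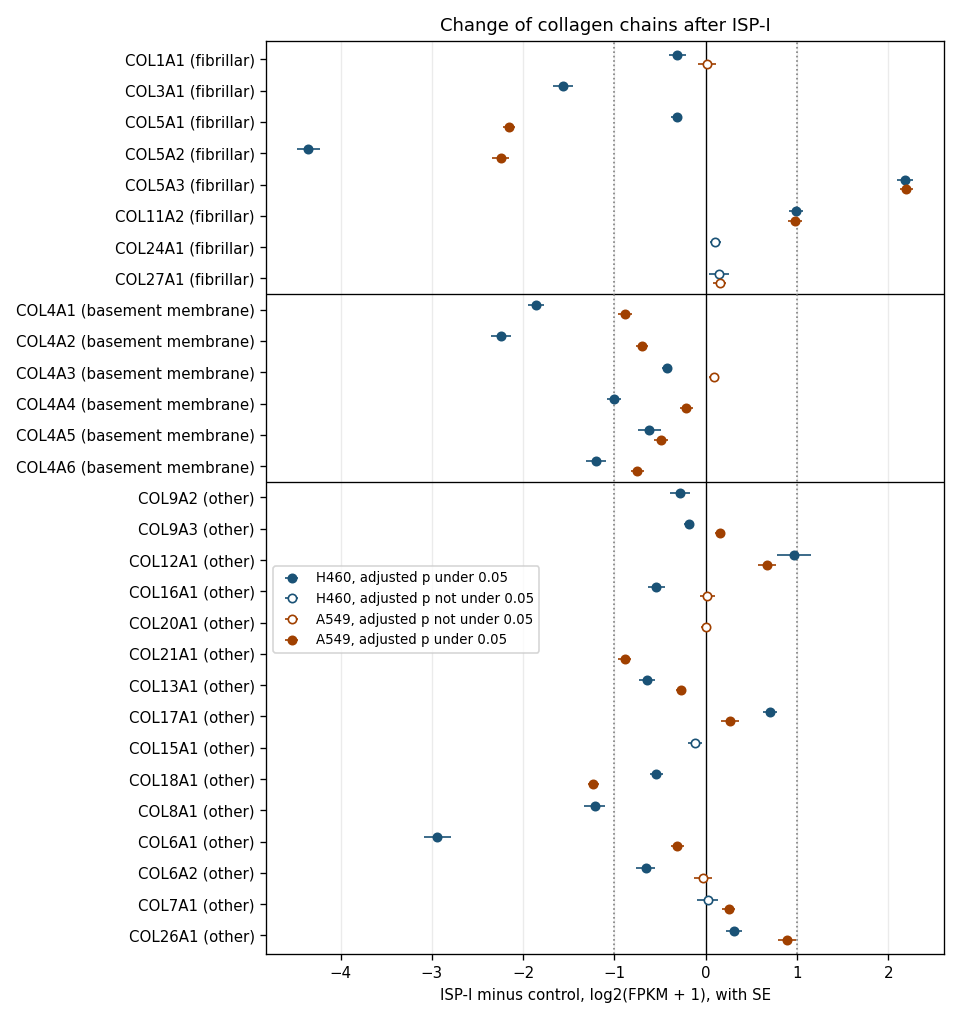
Change after ISP-I on the log2(FPKM + 1) scale (horizontal axis, with SE) for each chain tested in H460 and A549, filled where the adjusted p was under 0.05. Dotted lines mark 2-fold. COL5A3 lies at 2.18 and 2.20 in the 2 lines, COL5A2 at -4.35 and -2.25, and no type IV chain rose in either line.

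The type V chains, among the fibrillar ones, did not move in 1 direction. COL5A1 and COL5A2, which together form the usual type V trimer, fell in both lines, while COL5A3, the third chain of the type, rose in both. COL11A2, which like the type V chains caps the width of fibres, rose as well. In H460, 2 of the 8 fibrillar chains tested rose, 4 fell and 2 did neither, and in A549 the counts were 2, 2 and 2 of 6. That is 75.0% and 66.7% that passed, beside 69.2% and 57.5% of all genes. The median change was -0.10 in H460 and 0.08 in A549.

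COL5A2 (chromosome 2, 189031898 to 189225312, minus strand, hg38) was at 374, 367 and 372 FPKM in the H460 controls and at 18.6, 17.9 and 15.3 FPKM after ISP-I. Every ISP-I library was therefore far under every control library, and the means were 21.5-fold apart. On the log2(FPKM + 1) scale it fell by 4.35 ± 0.12 (SE), with an adjusted p of 1.14e-07, the largest fall of any chain in either line. A549 controls held it at 35.9, 40.1 and 31.5 FPKM in controls and at 7.15, 6.48 and 6.58 FPKM after ISP-I. That is a 5.32-fold lower mean, with a log2 change of -2.25 ± 0.09 (adjusted p = 1.18e-06). The level in treated H460 was thus below that in non-treated A549.

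COL5A1 (chromosome 9, 134641803 to 134844843, plus strand) was at 26.7, 27.2 and 25.6 FPKM in the A549 controls and at 5.0, 5.05 and 5.5 FPKM after ISP-I. The groups did not overlap, and the mean was 5.11-fold lower with a log2 change of -2.15 ± 0.07 (adjusted p = 3.86e-07). In H460 the chain was already low, at 0.380, 0.389 and 0.499 FPKM in controls and 0.15, 0.135 and 0.133 FPKM after ISP-I. That is 3.04-fold lower (-0.32 ± 0.06, adjusted p = 0.0016), from 210 to 77 reads over 3 libraries. The 2 partner chains therefore stood in very different proportions. COL5A2 was 1.35 ± 0.12 times the level of COL5A1 in control A549 and 1.30 ± 0.118 times after ISP-I, but 891 ± 127 times in control H460 and 124 ± 9.01 times after ISP-I.

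COL5A3 (chromosome 19, 9959561 to 10010504, minus strand) was near the detection limit in controls. It was at 0.0615, 0.0388 and 0.119 FPKM in the H460 controls and at 4.07, 3.56 and 3.95 FPKM after ISP-I. In A549 the values were 0.0415, 0.0502 and 0.020 FPKM in controls and 3.98, 3.62 and 3.66 FPKM after ISP-I. The treated libraries of both lines reached about the same level, far above every control. The reads summed to 22 in the H460 controls and 1294 after ISP-I, a 53.0-fold ratio at equal depth with an exact 95% interval of 34.9 to 84.9 that covers counting error only. In A549 they summed to 11 and 1144, a 101-fold ratio with an interval of 56.3 to 203. The control means, 0.0730 FPKM in H460 and 0.0372 FPKM in A549, were under the 0.1 FPKM limit, which COL5A3 passed only through its ISP-I libraries. On the log2(FPKM + 1) scale COL5A3 rose by 2.18 ± 0.09 in H460, with an adjusted p of 4.85e-07. The rise in A549 was 2.20 ± 0.07, with an adjusted p of 3.68e-07.

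COL11A2 (chromosome 6, 33162681 to 33192499, minus strand) was at 0.175, 0.107 and 0.159 FPKM in the H460 controls and at 1.12, 1.39 and 1.33 FPKM after ISP-I. The A549 values were 0.292, 0.242 and 0.251 FPKM in controls and 1.48, 1.28 and 1.72 FPKM after ISP-I. The groups did not overlap in either line. The ratio of means was 8.69 in H460 (log2 change 0.99 ± 0.08, adjusted p = 8.73e-06) and 5.70 in A549 (0.98 ± 0.08, adjusted p = 2.5e-05), just under the 2-fold limit on the scale used for DEGs. Its partners COL11A1 and COL2A1 stayed under 0.1 FPKM on average in both lines.

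**Figure D4:**
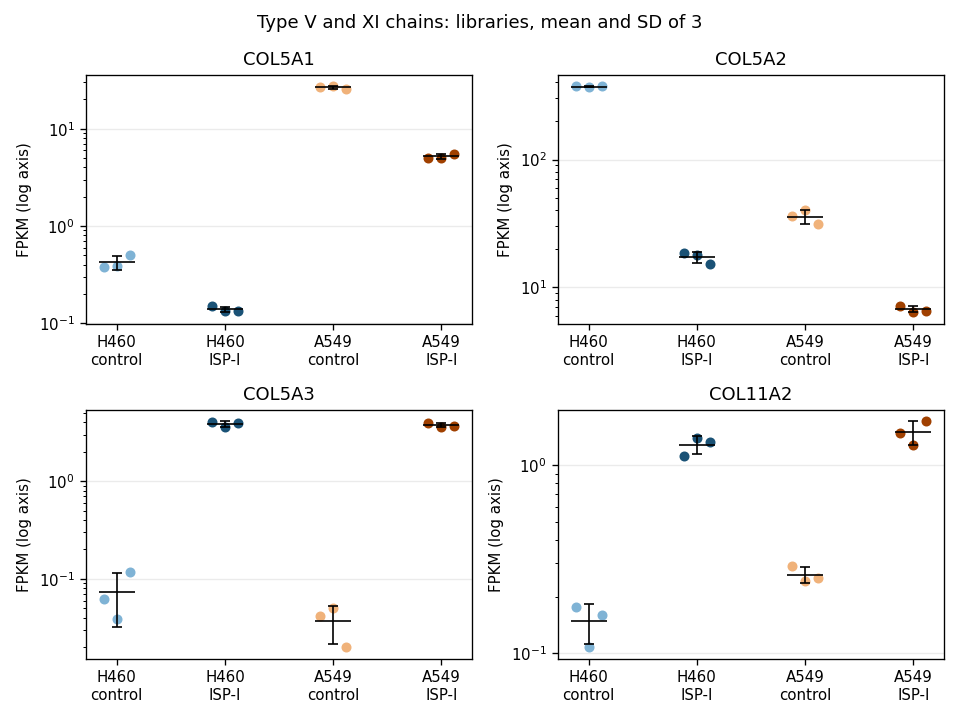
FPKM of COL5A1, COL5A2, COL5A3 and COL11A2 (vertical log axes, one panel each) in the 4 groups, with points for libraries and bars for the mean and SD of 3. COL5A1 and COL5A2 are lower after ISP-I in both lines, COL5A3 and COL11A2 higher, and the treated COL5A3 means are 3.86 FPKM in H460 and 3.75 FPKM in A549.

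The promoter windows of COL5A3, which rose, and COL5A1, which fell, are shown because these chains of a single collagen type moved in opposite directions. Each is 300 bases from RefSeq (GRCh38.p14), 250 before the gene's start and 50 after, written 5′ to 3′ on the gene's strand, and RefSeq windows were matched for 32 of the 44 chains. Capitals mark the GC box GGGCGG on either strand, the short element bound by Sp1-type factors.
COL5A3 (chr19:10010455-10010754, minus strand): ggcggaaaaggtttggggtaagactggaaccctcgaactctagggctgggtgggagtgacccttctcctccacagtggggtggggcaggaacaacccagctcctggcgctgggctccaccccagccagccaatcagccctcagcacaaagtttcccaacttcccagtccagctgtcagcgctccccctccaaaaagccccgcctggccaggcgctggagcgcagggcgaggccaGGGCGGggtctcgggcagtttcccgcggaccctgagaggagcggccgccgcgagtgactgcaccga
COL5A1 (chr9:134641553-134641852, plus strand): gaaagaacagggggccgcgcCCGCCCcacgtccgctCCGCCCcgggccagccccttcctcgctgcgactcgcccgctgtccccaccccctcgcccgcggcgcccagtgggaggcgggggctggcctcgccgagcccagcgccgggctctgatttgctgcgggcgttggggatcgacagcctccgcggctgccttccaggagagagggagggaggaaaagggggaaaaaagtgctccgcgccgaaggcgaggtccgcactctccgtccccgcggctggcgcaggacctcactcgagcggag
The COL5A3 window held 1 GC box and 1 CCAAT (either strand), and the COL5A1 window held 2 GC boxes and no CCAAT. Neither window held the AP-1 letters TGANTCA or the TATA letters TATAAA. The 32 matched chains had 44 windows in all, as some chains have several. The 12 chains without a window include COL5A2, COL3A1, COL6A1, COL8A1 and COL1A1. A GC box was found in 45.0% of all 35116 windows of that length and in 24 of the 44 windows of the chains. CCAAT was found in 34.6% of all windows and in 14 of the 44. The AP-1 letters were in 7.71% of all windows and in 1 of the 44, and TATAAA was in 11.5% and in 8. These matches describe letters and not binding.

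COL3A1, the type III chain of elastic tissues, was detected almost only in H460. It was at 8.19, 9.15 and 8.45 FPKM in the H460 controls and at 2.24, 2.44 and 2.05 FPKM after ISP-I, without overlap, a 3.83-fold lower mean (-1.56 ± 0.11, adjusted p = 5.17e-06). A549 was under the limit for it, with 29 reads over the 3 controls and 21 after ISP-I. COL3A1 and COL5A2 are neighbours on chromosome 2, and the listed gene bodies face each other.

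COL27A1, a fibrillar chain of cartilage, stayed close to its control level. Its values were 2.95, 2.90 and 3.02 FPKM in the H460 controls and 3.02, 3.53 and 3.60 FPKM after ISP-I, and 4.15, 4.24 and 4.05 against 4.67, 4.57 and 4.91 FPKM in A549. The ISP-I libraries lay slightly above the controls in both lines, by a ratio of 1.14 in each. Neither change passed the test (adjusted p = 0.252 and 0.103), although in H460 it did with median-of-ratios scaling (0.37, adjusted p = 0.0152). COL1A1, the main chain of bone and skin collagen, was low at 1.19 ± 0.168 FPKM in control H460 and 0.764 ± 0.126 FPKM after ISP-I (-0.31 ± 0.10, adjusted p = 0.0187). That call was lost with median-of-ratios scaling (adjusted p = 0.151), with voom (0.163), and without control library 2 (0.0612) or 3 (0.0661). In A549 the chain was at 0.840 ± 0.209 and 0.849 ± 0.147 FPKM with overlapping libraries. COL24A1 was measured in H460 only, at 0.155 ± 0.0663 and 0.241 ± 0.0358 FPKM (adjusted p = 0.17), and it passed with voom on recovered reads (0.99, adjusted p = 0.0233).

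The type IV chains, which form the basement membrane network, moved downward as a class. All 6 fell in H460, 4 of them as DEGs, with a median change of -1.10. In A549, 5 of 6 fell and none was a DEG, with a median of -0.59. Over all genes, 41.5% fell in H460 and 27% in A549, and 25.7% and 7.71% were DEGs. The control and ISP-I libraries did not overlap for any of the 6 chains in either line, as in 72.7% and 65.5% of all genes, with COL4A3 in A549 on the higher side after ISP-I and the others on the lower. With median-of-ratios scaling all 6 still fell in H460, 2 of them as DEGs, with a median of -0.91. Of all genes 67.1% then passed, 25.0% were DEGs, and the median was 0.01.

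The 6 genes lie in 3 head-to-head pairs whose members are transcribed away from each other, COL4A1 with COL4A2 on chromosome 13, COL4A3 with COL4A4 on chromosome 2, and COL4A5 with COL4A6 on chromosome X. The listed gene starts are 171 bases apart for COL4A3 and COL4A4 and 341 for COL4A5 and COL4A6, while those of COL4A1 and COL4A2 are 1345 bases apart and the listed gene bodies overlap between them. The windows of COL4A2 and COL4A5 are shown because each also holds part of its partner's window, which the capitals mark. Windows follow RefSeq starts, which can differ from the listed starts. The COL4A2 window lies inside its listed gene body, past the listed start at 110305812, so the 1345 bases do not describe the RefSeq starts.
COL4A2 (chr13:110307034-110307333, plus strand): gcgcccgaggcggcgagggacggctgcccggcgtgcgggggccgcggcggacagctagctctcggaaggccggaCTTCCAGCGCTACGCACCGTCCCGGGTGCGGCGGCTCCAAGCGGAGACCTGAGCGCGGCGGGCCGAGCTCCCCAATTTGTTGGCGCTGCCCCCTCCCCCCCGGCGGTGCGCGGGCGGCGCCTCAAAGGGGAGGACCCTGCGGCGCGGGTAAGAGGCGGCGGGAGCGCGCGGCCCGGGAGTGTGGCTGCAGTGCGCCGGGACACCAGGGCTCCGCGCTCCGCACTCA
COL4A5 (chrX:108439588-108439887, plus strand): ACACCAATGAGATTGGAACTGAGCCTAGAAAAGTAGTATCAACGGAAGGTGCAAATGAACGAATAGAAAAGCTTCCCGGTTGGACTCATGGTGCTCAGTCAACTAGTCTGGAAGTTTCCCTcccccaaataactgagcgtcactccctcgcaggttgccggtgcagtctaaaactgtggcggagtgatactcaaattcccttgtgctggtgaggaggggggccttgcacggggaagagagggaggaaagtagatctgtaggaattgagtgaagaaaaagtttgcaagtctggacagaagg
COL4A2 shares 226 of its 300 bases with the window of COL4A1, and COL4A5 shares 121 with that of COL4A6. The COL4A2 window held 1 GC box, 1 EGR-type match GCGNGGGCG, whose letters can overlap a GC box, and 1 CCAAT. The COL4A5 window held 2 CCAAT and no GC box. The EGR-type letters were in 9.43% of all windows and in 6 of the 44 windows of the chains.

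COL4A1 and COL4A2, the pair found in nearly all basement membranes, had the largest falls of the class in H460 on the log2(FPKM + 1) scale. COL4A1 (chromosome 13, 110148963 to 110307157, minus strand) was at 3.80, 3.58 and 3.52 FPKM in the H460 controls and at 0.305, 0.262 and 0.257 FPKM after ISP-I. This 13.2-fold lower mean was a log2 change of -1.86 ± 0.09 (adjusted p = 8.02e-07). In A549 it was at 13.0, 13.8 and 12.1 FPKM in controls and at 6.88, 6.32 and 6.52 FPKM after ISP-I, 1.98-fold lower (-0.88 ± 0.08, adjusted p = 3.25e-05). The A549 libraries were above those of H460 in both conditions.

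COL4A2 (chromosome 13, 110305812 to 110513209, plus strand) was at 6.69, 6.98 and 7.41 FPKM in the H460 controls and at 0.790, 0.570 and 0.741 FPKM after ISP-I. The mean was 10.0-fold lower (-2.24 ± 0.11, adjusted p = 9.11e-07). A549 libraries had 23.4, 24.2 and 22.3 FPKM in controls and 14.6, 13.5 and 13.9 FPKM after ISP-I, 1.66-fold lower (-0.70 ± 0.07, adjusted p = 5.96e-05). The level of COL4A2 relative to COL4A1 was 1.94 ± 0.172 in control H460, 2.55 ± 0.354 after ISP-I, 1.80 ± 0.0427 in control A549 and 2.13 ± 0.0112 after ISP-I. The strand setting of the counting is not given in the sources used here, so reads from the overlap of the 2 genes cannot be told apart.

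COL4A6 and COL4A5, whose protein pairs in smooth muscle and some epithelial basement membranes, were the best expressed type IV chains of H460. COL4A6 (chromosome X, 108155607 to 108439497, minus strand) was at 57.6, 59.9 and 59.3 FPKM in the H460 controls and at 24.7, 27 and 23.7 FPKM after ISP-I, 2.34-fold lower (-1.20 ± 0.11, adjusted p = 2.21e-05). In A549 it was at 23.7, 24.6 and 22.2 FPKM in controls and at 14.2, 12.9 and 13.6 FPKM after ISP-I, 1.73-fold lower (-0.75 ± 0.07, adjusted p = 5.4e-05). With median-of-ratios scaling the H460 change was -0.92, past the test but under 2-fold.

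COL4A5 (chromosome X, 108439838 to 108697545, plus strand) changed less. It was at 18.3, 18.0 and 16.5 FPKM in the H460 controls and at 11.1, 12.8 and 9.62 FPKM after ISP-I, 1.58-fold lower (-0.62 ± 0.13, adjusted p = 0.00246). The A549 libraries had 10.7, 11.3 and 9.74 FPKM in controls and 7.16, 7.0 and 7.55 FPKM after ISP-I, 1.46-fold lower (-0.49 ± 0.08, adjusted p = 0.000904). The level of COL4A6 relative to COL4A5 went from 3.36 ± 0.228 to 2.27 ± 0.177 in H460 and from 2.23 ± 0.0528 to 1.88 ± 0.0972 in A549, and treated libraries did not reach the control range in either line.

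COL4A3 and COL4A4 are the chains of the glomerular and alveolar basement membrane and were the least expressed of the class. COL4A4 (chromosome 2, 227002714 to 227164453, minus strand) was at 1.08, 1.25 and 1.40 FPKM in the H460 controls and at 0.10, 0.143 and 0.107 FPKM after ISP-I, 10.6-fold lower, with 555 reads against 58 (-1.0 ± 0.08, adjusted p = 8.38e-06). It lies at the 2-fold limit and was no DEG with median-of-ratios scaling (-0.90). In A549 it was at 0.630, 0.555 and 0.742 FPKM in controls and at 0.50, 0.317 and 0.437 FPKM after ISP-I (-0.21 ± 0.07, adjusted p = 0.0391). The A549 call was lost without control library 1 or 3 or without ISP-I library 2 or 3, with adjusted p between 0.0784 and 0.134. COL4A3 fell 5.17-fold in H460, from 0.466 ± 0.0267 to 0.0901 ± 0.0227 FPKM (-0.43 ± 0.06, adjusted p = 0.000195). In A549 it was at 0.194 ± 0.0339 and 0.268 ± 0.0396 FPKM (adjusted p = 0.208), the one type IV chain that did not fall.

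Of the other chains, 3 rose and 8 fell among 13 in H460, and 5 rose and 4 fell among 12 in A549. That is 84.6% and 75.0% that passed, beside 69.2% and 57.5% of all genes, and DEGs were 15.4% and 8.33% beside 25.7% and 7.71%. Their median change was -0.28 and 0.01. The DEGs among them were COL6A1 and COL8A1 in H460 and COL18A1 in A549, all lower, and the chains that rose in both lines were COL12A1, COL17A1 and COL26A1.

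COL6A1, a chain of the beaded filaments around cells, had the second largest fall in H460 on the log2(FPKM + 1) scale, though COL4A1 and COL4A4 fell more by the ratio of means. COL6A1 (chromosome 21, 45981769 to 46005050, plus strand) was at 23.5, 30.1 and 28.6 FPKM in the H460 controls and at 2.89, 2.12 and 3.12 FPKM after ISP-I, 10.1-fold lower (-2.94 ± 0.15, adjusted p = 1.18e-06). The fall was small in A549, with 9.70, 9.20 and 9.59 FPKM in controls and 7.82, 7.09 and 7.47 FPKM after ISP-I, only 1.27-fold lower (-0.31 ± 0.07, adjusted p = 0.00546). Its partner COL6A2 fell from 1.65 ± 0.240 to 0.678 ± 0.106 FPKM in H460 (-0.66 ± 0.10, adjusted p = 0.000456) and was at 5.02 ± 0.513 and 4.90 ± 0.523 FPKM in A549 (adjusted p = 0.825). COL6A2 was thus 0.0603 ± 0.00350 times the level of COL6A1 in control H460 and 0.259 ± 0.0777 times after ISP-I, and 0.528 ± 0.0484 and 0.658 ± 0.0777 times in A549.

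COL8A1, a short-chain network collagen of vessel walls and the cornea, was abundant in H460 and missing from A549. COL8A1 (chromosome 3, 99638475 to 99799226, plus strand) was at 44.4, 42.0 and 43.3 FPKM in the H460 controls and at 19.0, 19.4 and 15.9 FPKM after ISP-I, 2.39-fold lower (-1.22 ± 0.12, adjusted p = 3.09e-05). With median-of-ratios scaling the change was -0.94 and passed the test but not the 2-fold limit. The A549 controls held 0 reads of it, against 5994 to 6069 in each H460 control, which makes the H460 level at least 1871-fold higher (lowest H460 control library against 3 reads in an A549 library). After ISP-I, A549 held 8 reads over 3 libraries.

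COL18A1, a basement membrane proteoglycan core from which endostatin is cut, showed the reverse distribution. COL18A1 (chromosome 21, 45405165 to 45513720, plus strand) was at 33.4, 33.9 and 33.6 FPKM in the A549 controls and at 14.1, 13.9 and 13.2 FPKM after ISP-I, 2.45-fold lower (-1.23 ± 0.06, adjusted p = 2.32e-06). In H460 it was at 0.788, 0.871 and 0.960 FPKM in controls and at 0.264, 0.262 and 0.326 FPKM after ISP-I, 3.07-fold lower (-0.54 ± 0.07, adjusted p = 0.000171). Every treated library was under every control library of its line. The gene overlaps SLC19A1 on the opposite strand in the annotation. COL15A1, its relative, was measured in H460 only, at 0.732 ± 0.0996 and 0.598 ± 0.0447 FPKM (adjusted p = 0.202).

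COL7A1, the chain of the fibrils that anchor skin epithelium, led the A549 order and did not fall. COL7A1 (chromosome 3, 48564073 to 48595267, minus strand) was at 54.9, 49.7 and 48.4 FPKM in the A549 controls and at 61.2, 59.3 and 61.9 FPKM after ISP-I (0.25 ± 0.07, adjusted p = 0.0148). That call was lost without ISP-I library 1 (adjusted p = 0.056) or 3 (0.0628). In H460 it was at 4.26, 5.09 and 5.38 FPKM in controls and at 5.14, 4.76 and 5.04 FPKM after ISP-I, with overlapping libraries (adjusted p = 0.882).

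The fibril-associated chains were mixed. COL12A1, which sits on the surface of type I fibres, rose from 2.98 ± 0.121 to 6.97 ± 2.15 FPKM in H460 (2.34-fold, 0.97 ± 0.19, adjusted p = 0.00181) and from 1.94 ± 0.328 to 3.65 ± 0.192 FPKM in A549 (1.88-fold, 0.67 ± 0.10, adjusted p = 0.000672). The 3 treated H460 libraries were spread widely, at 6.94, 9.14 and 4.84 FPKM. COL21A1 fell 17.6-fold in A549, from 0.944 ± 0.0619 to 0.0535 ± 0.0766 FPKM, or from 285 to 16 reads (-0.89 ± 0.07, adjusted p = 2.24e-05). The treated libraries held 2, 0 and 14 reads, and the ratio was 97.5 without the third and 11.8 without the second. H460 held 7 and 5 reads of it. COL16A1 fell in H460, from 1.43 ± 0.123 to 0.667 ± 0.128 FPKM (-0.54 ± 0.09, adjusted p = 0.000838), and was at 1.87 ± 0.129 and 1.91 ± 0.165 FPKM in A549 (adjusted p = 0.858). COL20A1 in A549 did not change detectably (adjusted p = 0.96).

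COL9A3 moved oppositely in the 2 lines at very low levels. The gene overlaps TCFL5 on the opposite strand in the annotation. It fell in H460 from 40 to 10 reads (-0.19 ± 0.06, adjusted p = 0.0201) and rose in A549 from 25 to 54 reads (0.16 ± 0.05, adjusted p = 0.0337). The H460 call was lost without ISP-I library 2 (adjusted p = 0.0605), and the A549 call without any of control libraries 1, 2 and 3 or ISP-I libraries 2 and 3 (adjusted p from 0.0523 to 0.11). COL9A2 fell in H460 from 56 to 12 reads (-0.28 ± 0.11, adjusted p = 0.0447), a call that did not hold with median-of-ratios scaling (adjusted p = 0.06) or without any H460 library other than control 2. Its ratio of means was 5.19, and 3.09 without control library 3.

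Among the transmembrane chains, COL17A1, the hemidesmosome collagen of basal epithelium, rose from 0.121 ± 0.0982 to 0.825 ± 0.0481 FPKM in H460 (6.79-fold, 0.71 ± 0.08, adjusted p = 7.2e-05). Without control library 3, the highest of the controls, the ratio was 12.3. A549 was higher from the start, at 1.13 ± 0.142 FPKM, and reached 1.57 ± 0.242 FPKM (0.27 ± 0.09, adjusted p = 0.0396). The A549 call was lost without control library 1 or 2 or ISP-I library 2 or 3 (adjusted p from 0.0664 to 0.135). COL13A1, a surface collagen of cell contacts, fell in both lines, 5.19-fold in H460 from 0.805 ± 0.166 to 0.155 ± 0.0694 FPKM (-0.64 ± 0.09, adjusted p = 0.000228). In A549 it fell 4.42-fold, from 0.290 ± 0.0154 to 0.0657 ± 0.0216 FPKM (-0.28 ± 0.05, adjusted p = 0.00182). COL26A1, which is not a transmembrane chain, rose 2.12-fold in H460, from 0.266 ± 0.134 to 0.563 ± 0.0228 FPKM (0.31 ± 0.09, adjusted p = 0.0117), and 2.67-fold in A549, from 1.05 ± 0.211 to 2.79 ± 0.271 FPKM (0.89 ± 0.10, adjusted p = 0.00013).

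The difference between the lines was tested as the interaction of line and treatment over all 12 libraries, for 28 chains. The H460 change was the higher in 4 chains and the lower in 15, and 9 did not pass, where 53.3% of all genes passed, 18.6% with a higher and 34.7% with a lower H460 change. Past 2-fold there was 1 chain, COL5A1 (1.83 ± 0.10, adjusted p = 7.77e-08), with a smaller fall in H460 (3.04-fold there against 5.11-fold in A549, from a much lower level), and 5 with a larger fall, against 16% of all genes (5.93% and 10.1%). Those 5 were COL6A1 (-2.63 ± 0.16, adjusted p = 1.5e-07), COL5A2 (-2.11 ± 0.14, adjusted p = 2.88e-07), COL4A2 (-1.54 ± 0.11, adjusted p = 5.39e-07), COL3A1 (-1.53 ± 0.11, adjusted p = 3.92e-07) and COL8A1 (-1.24 ± 0.12, adjusted p = 4.36e-06). COL3A1 and COL8A1 were nearly or fully at 0 in A549, so there was little or no A549 level that could fall. The rise of COL5A3 did not differ detectably between the lines (difference -0.02 ± 0.10, adjusted p = 0.899), nor did that of COL11A2 (0.01 ± 0.10, adjusted p = 0.933), on the log2(FPKM + 1) scale. With median-of-ratios scaling, COL5A3 differed by 0.28 (adjusted p = 0.0357), and with voom on recovered reads, COL11A2 differed by 0.93 (adjusted p = 0.0442). COL12A1 did not pass (0.30 ± 0.23, adjusted p = 0.281), but it did without H460 ISP-I library 3 (0.51, adjusted p = 0.0176), the lowest of its treated H460 libraries, and with median-of-ratios scaling (0.58, adjusted p = 0.046).

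Before treatment, 26 chains could be compared between control H460 and control A549. H460 was the higher in 12 and A549 in 11, and 3 did not pass, where 60.2% of all genes passed (28.6% higher in H460 and 31.6% in A549). Past 2-fold, H460 was higher in COL8A1, COL5A2, COL3A1, COL6A1 and COL4A6, and A549 in COL5A1, COL18A1, COL7A1, COL4A2, COL4A1 and COL6A2, 42.3% of the chains against 14.4% of all genes (5.64% and 8.78%). The ratio of means was 87.4 for COL3A1, 10.4 for COL5A2, 2.89 for COL6A1 and 2.50 for COL4A6 in favour of H460. In favour of A549 it was 62.7 for COL5A1, 38.5 for COL18A1, 10.4 for COL7A1, 3.58 for COL4A1, 3.32 for COL4A2 and 3.04 for COL6A2. The libraries did not overlap in 24 of the 26 chains, as in 64.8% of all genes. This comparison shares its control libraries with the ISP-I comparisons.

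The enzymes, chaperones and export genes that collagen needs in the endoplasmic reticulum were lower more often than higher in both lines. So were all genes in H460, though with median-of-ratios scaling their median change was 0.01. Of 23 such genes, 22 were tested, and in H460 3 rose, 14 fell and 5 did neither, with a median change of -0.67 beside -0.15 for all genes. In A549, 4 rose, 12 fell and 6 did neither, with a median of -0.28 beside 0.02. Over all genes, 27.6% rose and 41.5% fell in H460, and 30.5% and 27% in A549. DEGs were 1 up and 8 down in H460 and 0 up and 2 down in A549, that is 40.9% and 9.09% of the list beside 25.7% and 7.71% of all genes. With median-of-ratios scaling the H460 counts were 4 up and 12 down, with a median of -0.39, where 67.1% of all genes passed.

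PLOD1, a lysyl hydroxylase whose products carry cross-links, fell from 40.1 ± 2.97 to 5.04 ± 0.426 FPKM in H460 (-2.77 ± 0.11, adjusted p = 4.87e-07) and from 23.4 ± 2.66 to 7.37 ± 0.244 FPKM in A549 (-1.54 ± 0.09, adjusted p = 4.65e-06). It ranked first in its list in both lines. CRTAP, part of the prolyl 3-hydroxylation complex, fell from 55.6 ± 2.98 to 11.0 ± 1.60 FPKM in H460 (-2.24 ± 0.13, adjusted p = 2.09e-06). COLGALT1, which adds galactose to hydroxylysine, fell from 53.8 ± 4.07 to 12.1 ± 1.73 FPKM there (-2.06 ± 0.13, adjusted p = 3.31e-06). In A549 the next were SERPINH1, the collagen chaperone HSP47, which fell from 39.4 ± 4.37 to 17.6 ± 1.04 FPKM (-1.11 ± 0.09, adjusted p = 2.77e-05), and the prolyl isomerase FKBP10, which fell from 62.8 ± 4.27 to 35.5 ± 0.354 FPKM (-0.80 ± 0.07, adjusted p = 3.34e-05). SERPINH1 was at only 1.16 ± 0.235 FPKM in control H460, the line with the higher collagen sum, and at 0.546 ± 0.0713 FPKM after ISP-I. The exceptions to the fall included SEC24D, a coat protein of export vesicles, which rose 3.50-fold in H460 and 1.65-fold in A549. SERPINH1 in H460 and SEC24D were named after their values were seen.

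**Figure D5:**
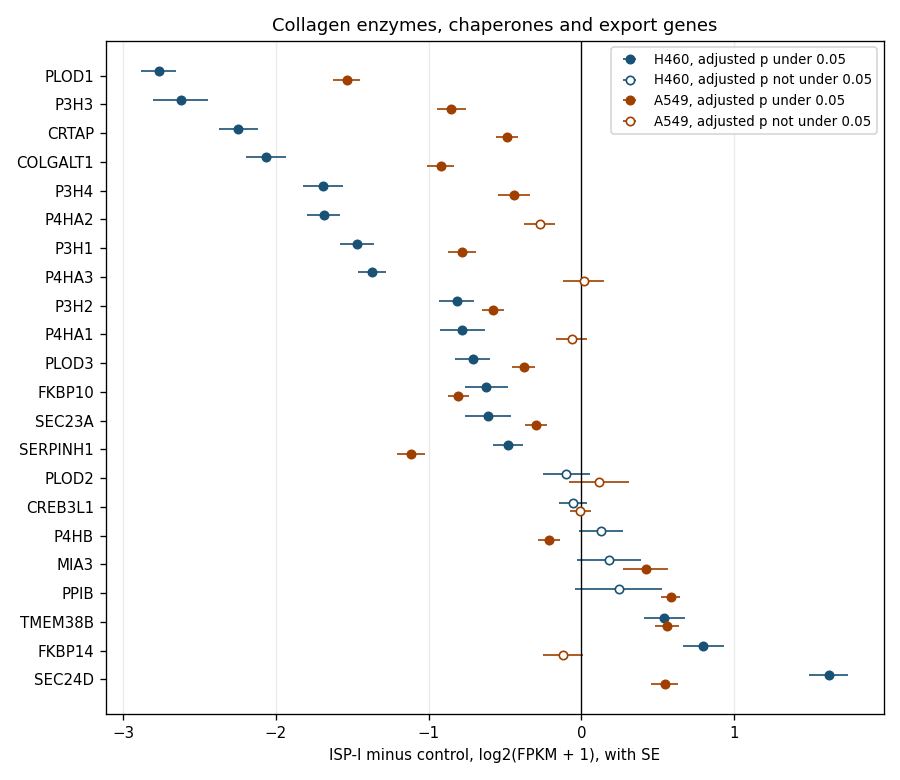
Change after ISP-I on the log2(FPKM + 1) scale (horizontal axis, with SE) for the 22 enzymes, chaperones and export genes tested, in H460 and A549, filled where the adjusted p was under 0.05. PLOD1 is the lowest in both lines, at -2.77 and -1.54, and SEC24D the highest in H460, at 1.62.

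Genes that act on collagen outside the cell moved in both directions. Of 13 processing and cross-linking genes, 3 rose and 4 fell among 8 tested in H460, and 4 rose and 3 fell among 9 in A549. That is 87.5% and 77.8% that passed, beside 69.2% and 57.5% of all genes. LOXL2, a lysyl oxidase that cross-links type IV collagen, fell from 23.6 ± 2.22 to 5.44 ± 1.30 FPKM in H460 (-1.95 ± 0.16, adjusted p = 1.2e-05) and from 45.4 ± 2.87 to 26.8 ± 1.16 FPKM in A549 (-0.74 ± 0.07, adjusted p = 6.22e-05). BMP1, the procollagen C-proteinase, fell 2.12-fold in H460 (-0.84 ± 0.11, adjusted p = 0.000149) and 2.07-fold in A549 (-0.97 ± 0.07, adjusted p = 1.23e-05). PCOLCE, which enhances that cleavage, fell 3.37-fold in H460 (-0.77 ± 0.08, adjusted p = 3.86e-05). LOXL4, another lysyl oxidase, rose from 0.616 ± 0.0880 to 1.89 ± 0.124 FPKM in A549 (0.84 ± 0.07, adjusted p = 4.11e-05).

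Among 10 collagen receptors, 2 rose and 3 fell of 9 tested in H460, and 1 rose and 4 fell of 7 in A549. That is 55.6% and 71.4% that passed, beside 69.2% and 57.5% of all genes. DDR1, a receptor tyrosine kinase for collagen in epithelial cells, fell from 8.46 ± 0.165 to 2.35 ± 0.227 FPKM in H460 (-1.50 ± 0.11, adjusted p = 5.87e-06) and from 8.12 ± 0.827 to 4.84 ± 0.167 FPKM in A549 (-0.64 ± 0.09, adjusted p = 0.000363). Its relative DDR2 rose in H460 from 0.0602 ± 0.0322 to 0.761 ± 0.342 FPKM (0.72 ± 0.12, adjusted p = 0.000974). MRC2, the endocytic collagen receptor, fell 2.47-fold in H460 (-0.59 ± 0.10, adjusted p = 0.000843) and from 15.7 ± 0.741 to 4.44 ± 0.109 FPKM in A549 (-1.61 ± 0.07, adjusted p = 1.27e-06). ITGA2, the alpha subunit of an epithelial collagen integrin, rose from 7.82 ± 1.95 to 16.4 ± 0.837 FPKM in A549 (1.01 ± 0.16, adjusted p = 0.00078) and was at 3.53 ± 0.283 and 3.54 ± 0.938 FPKM in H460 (adjusted p = 0.925). With median-of-ratios scaling, 4 receptors rose in H460 in place of 2, and 67.1% of all genes passed in place of 69.2%.

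Of 8 collagen-degrading proteases, 3 rose and none fell of 5 tested in H460, and 2 rose and 1 fell of 6 in A549. The shares that passed, 60% and 50%, were below those of all genes, 69.2% and 57.5%. MMP1, the interstitial collagenase, rose from 0.296 ± 0.0127 to 1.16 ± 0.149 FPKM in H460 (3.93-fold, 0.74 ± 0.08, adjusted p = 4.92e-05). In A549 it had 0 reads in the controls and 44 to 62 reads in each treated library, at least 14.0-fold higher (lowest treated library against 3 reads in a control library; adjusted p = 8.8e-06). MMP9, a gelatinase, rose from 0.0294 ± 0.0298 to 0.468 ± 0.0622 FPKM in H460 (0.51 ± 0.06, adjusted p = 0.000103; 15.9-fold, or 32.6-fold without control library 1) and from 0.226 ± 0.123 to 0.651 ± 0.140 FPKM in A549 (0.43 ± 0.09, adjusted p = 0.00501). MMP14, a membrane collagenase, rose in H460 from 0.147 ± 0.0541 to 0.377 ± 0.0139 FPKM (adjusted p = 0.00443) and fell in A549 from 0.744 ± 0.0565 to 0.421 ± 0.0932 FPKM (adjusted p = 0.00701). No protease of the list had a group mean above 2.14 FPKM.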

How the data were processed

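RNA was sequenced as 150 bp paired reads, and the submitters' notes name FastQC, HISAT2 and HTSeq 0.9.1 with genome build hg38. The annotation version and strand setting are not given in the sources used here. The authors deposited FPKM per gene for 12 libraries, with gene length and coordinates. FPKM times length came out as a whole multiple of 1 step in every library (tolerance 0.02), so read counts per gene were recovered from the deposited FPKM. The numbers on the untreated columns match the replicate numbers of the labels, but those on the treated columns do not. Columns were therefore matched to groups only, and libraries are numbered by their place in the table. Lines of the table that held broken annotation text and no gene (4) were left out.

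Members were taken by symbol. The members, the classes and the gene lists were chosen with earlier results of these data known. Chains given library by library were DEGs in a line, those past 2-fold in the test of the difference between H460 and A549, and the 3 with the highest mean in each class. COL11A2 and the treated H460 values of COL12A1 were added after their values were seen. Of the other lists, the 3 genes with the smallest p in each line are given. Genes that averaged 0.1 FPKM or more in the libraries fitted were tested by limma 3.58.1 (R 4.3.3) with a mean-variance trend on log2(FPKM + 1). Benjamini-Hochberg adjustment was over all genes tested, after a test on simulated data. A gene under 0.1 FPKM in 1 group could pass through the other group alone. Among the chains, COL5A3 did so in both lines, COL4A3, COL9A2 and COL9A3 in H460, and COL13A1 and COL21A1 in A549. Genes of the other lists did so too, among them MMP1 in A549 and MMP9 and DDR2 in H460. Python 3.11.15 with pandas 2.3.3 and scipy 1.17.1 served for the rest. The alternatives tried were 0.1 in place of 1 as pseudocount, a filter at 1 FPKM or none, median-of-ratios scaling, limma voom on recovered reads (at least 10 in 3 libraries), 2-fold taken from mean FPKM, 1 fit of all 12 libraries, and leaving out each library. With 3 libraries a group, intervals on reads cover counting error only.

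Of the 44 chains, 37 have the same listed position in GENCODE v44, and 22 overlap a gene on the opposite strand, whose reads may be counted with theirs.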

Additional observations from a re-analysis of the deposited data

Results flagged for a closer look

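For 19 chains the change after ISP-I differed between H460 and A549 by the interaction test (limma, adjusted p under 0.05), given here as H460 minus A549 on the log2(FPKM + 1) scale. Among the fibrillar chains these were COL3A1 (-1.53), COL5A1 (1.83) and COL5A2 (-2.11). Among the type IV chains they were COL4A1 (-0.98), COL4A2 (-1.54), COL4A3 (-0.51), COL4A4 (-0.79) and COL4A6 (-0.45). Among the others they were COL9A2 (-0.33), COL9A3 (-0.34), COL16A1 (-0.56), COL21A1 (0.88), COL13A1 (-0.37), COL17A1 (0.44), COL18A1 (0.69), COL8A1 (-1.24), COL6A1 (-2.63), COL6A2 (-0.63) and COL26A1 (-0.58). COL9A3 was the one chain that passed the test in both lines with opposite signs, falling in H460 and rising in A549. It did so at very low levels, from 40 to 10 reads and from 25 to 54, and each call was lost when certain single libraries were left out. COL21A1 was nearly absent from H460 and COL3A1 and COL8A1 from A549, so for these chains the difference rests on the change in 1 line. On voom, which compares ratios of reads, COL5A1 differed by 1.10 (adjusted p = 0.00175) and COL5A2 by -1.71 (adjusted p = 9.67e-07), while COL3A1 (-1.30, adjusted p = 0.0854) and COL4A6 (-0.12, adjusted p = 0.417) no longer passed. COL18A1 (-0.010, adjusted p = 0.972), COL26A1 (0.094, adjusted p = 0.884) and COL13A1 (0.012, adjusted p = 0.987) changed sign on voom and did not pass. By the ratio of means COL18A1 fell 3.07-fold in H460 and 2.45-fold in A549, against the direction of its difference on the log2(FPKM + 1) scale. The COL9A2 difference was lost, with adjusted p from 0.0532 to 0.0843, when any one A549 library, any one H460 ISP-I library or H460 control library 1 was left out, and with median-of-ratios scaling (adjusted p = 0.056).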

How the results depend on the processing

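No paired analysis was possible because the table's columns do not carry the replicate numbers of the labels. The count of chains past 2-fold in H460, 1 up and 8 down, was 4 and 16 with a pseudocount of 0.1. It was 3 and 5 with median-of-ratios scaling, and 5 and 16 by the ratio of mean FPKM. With voom 5 were up, and the downward count is not given here. The share of all genes by the ratio was not computed for any comparison, so the ratio counts have no share beside them. Over all genes the share past 2-fold was 25.7%, 43.1% with the pseudocount, 25.0% with median-of-ratios scaling and 45.1% with voom. In A549, 1 up and 3 down became 3 and 5, then 5 and 5 with voom and 4 and 5 by the ratio. The A549 share of all genes was 7.71%, 17.5% with the pseudocount and 19.7% with voom. The interaction had 1 higher and 5 lower past 2-fold, and 3 and 12 with the pseudocount or 3 and 8 with voom. Of all genes 16.0% were past it, 30.4% with the pseudocount and 28.9% with voom. For control H460 against control A549, 5 higher in H460 became 8 with the pseudocount and 9 with voom or the ratio, and 6 higher in A549 became 11 with voom. There 14.4% of all genes were past 2-fold, 26.7% with the pseudocount and 28.8% with voom. Of these settings, the ratio and voom add no 1 FPKM to low values and the pseudocount adds less, whereas median-of-ratios scaling keeps the 1. With the filter at 1 FPKM fewer genes were tested, and the counts that passed were 2 up and 10 down in H460, 2 with a higher H460 change, and 7 higher in control H460. Of all genes tested then, 72.3%, 57.2% and 61.8% passed in these comparisons. Leaving out 1 library gave 1 to 2 up and 7 to 8 down past 2-fold in H460 and 15 to 17 that fell, and 1 to 2 up, 3 down, 4 to 6 that rose and 10 to 11 that fell in A549. Of all genes, 24.7% to 28.0% were then past 2-fold and 62.2% to 73.6% passed in H460. In A549 these shares were 7.63% to 8.01% and 47.8% to 66.7%. The second chain past 2-fold up in H460 appeared without control library 1, ISP-I library 1 or ISP-I library 3, and in A549 without ISP-I library 2. Median-of-ratios factors were 1.09 to 1.12 for the H460 controls, 0.899 to 0.920 after ISP-I, and 0.976 to 1.02 in A549. Interaction values that changed sign were COL18A1 (-0.055 with the pseudocount, -0.010 with voom), COL26A1 (0.094) and COL13A1 (0.012) with voom, and COL5A3 (0.28) with median-of-ratios scaling. The COL4A6 difference did not pass with median-of-ratios scaling (-0.15) or voom (-0.12). The cause of these changes was not tested. Chains under 0.1 FPKM in both lines, with at most 21 reads in a library, were not tested in the main fits. Their ratios of reads have wide intervals, which cover counting error only. Some intervals excluded 1, as for COL28A1 in A549, from 10 to 44 reads (4.28, 95% interval 2.12 to 9.53). Others did not, as for COL6A3 in H460, from 16 to 9 reads (0.507, 95% interval 0.197 to 1.22).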
